A study of Drosophila melanogaster with 42 samples.

Results

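The wing pouch selector genes described here are 7 genes chosen by symbol from the 17208 genes of the deposited count table: apterous (ap), vestigial (vg), nubbin (nub), rotund (rn), defective proventriculus (dve), Distal-less (Dll) and blistered (bs). All 7 were found, and each was followed through all 42 libraries and 12 groups of a study of mutants of fat, the gene of a giant atypical cadherin. Every library was made from RNA of wing imaginal discs taken from third-instar Drosophila melanogaster larvae. The mutants were compared with the wild type run on the same sequencer model.

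The NovaSeq X Plus libraries held wild type (2 libraries, called WT X Plus here), Fd5-5 (2), HpoC (5), HpoN+PH (4), PCP (5) and delta D (3). The NovaSeq 6000 libraries held their own wild type (3, WT 6000) and the mutants delta A (4), delta B (4), delta C (3), delta E (4) and delta F (3). The wild-type libraries carry the strain name w1118.csvd111. HpoC, HpoN+PH and PCP are named in the labels as changes in functional domains of Fat, and delta A to delta F as changes in its conserved regions. Fd5-5 is the one group left for the fat null that the study names, and no label says so directly. The sex of the larvae, the number of discs in a library and whether the replicates came from separate cultures are not given in the sources used here. The p-values therefore measure the spread between libraries, which may be technical.

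The wing disc is a sheet of epithelium whose central pouch becomes the wing blade, while the surrounding hinge and the notum become the wing base and the back of the thorax. A selector gene is a transcription factor gene that sets the fate of a compartment or field. Ap, a LIM-homeodomain protein, gives dorsal cells their identity, and the dorsal-ventral boundary it sets up turns on vg, whose product acts with the DNA-binding protein Scalloped (Sd) as the wing selector. The POU-domain protein Nub, the zinc-finger protein Rn and the homeodomain proteins Dve and Dll pattern the pouch along its proximodistal axis, and Bs, the fly serum response factor, directs intervein fate. Fat and its ligand Dachsous act through the Hippo pathway and planar cell polarity, and signals through Fat help vg expression to spread as the pouch grows.

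Of the 7 genes, 5 lie on chromosome arm 2R (BDGP6 coordinates, as in dm6). These are ap (FBgn0267978, 2R:5706202-5727525, minus strand), vg (FBgn0003975, 2R:12884201-12899385, plus strand), dve (FBgn0020307, 2R:22243963-22286469, plus strand), bs (FBgn0004101, 2R:24342861-24376473, plus strand) and Dll (FBgn0000157, 2R:24814822-24835667, plus strand). The gene nub (FBgn0085424, 2L:12587625-12628135, plus strand) lies on arm 2L and rn (FBgn0267337, 3R:7272617-7309629, minus strand) on arm 3R. Other genes lie inside the spans of nub, rn and bs, and no exon of any member overlaps an exon of another gene. Their estimated counts ran from 391 to 33731 per library, so all 7 passed the filter on low counts in every fit.

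Libraries held 19538216 to 48392408 estimated counts in all. Levels are given as CPM, the usual counts scaled to a common library total, adjusted with trimmed-mean-of-M-values (TMM) factors over all 42 libraries. The libraries fell on either side of 3% in the share of counts on the 46 symbols containing rRNA: 21 held 1.68% or less, and 21 held 5.11% or more. They are called low-rRNA and high-rRNA libraries below. Both WT X Plus libraries were high-rRNA and all 3 WT 6000 libraries low-rRNA. All libraries of Fd5-5 and delta D were low-rRNA and all of delta A, delta C and delta F high-rRNA, so none of these 5 mutants shares a side with its wild type. Within mixed groups, the smaller side was HpoC 1 and 2 (low), HpoN+PH 1 (high), PCP 5 (high), delta B 4 (low) and delta E 4 (high). Over all genes, 17 libraries resembled another group more than their own, among them all of HpoC, delta B and delta E, HpoN+PH 1 and PCP 1, 2 and 5. By mean Spearman's rho, PCP 5 was nearest WT X Plus (0.989, own group 0.919) and delta E 4 nearest delta F (0.994, own 0.911). Delta B 4 was nearest WT 6000 (0.983, own 0.919). HpoC 1 and 2 were nearest Fd5-5 (0.986 and 0.984, own 0.914 and 0.929), and HpoN+PH 1 nearest HpoC (0.955, own 0.926). Whether these libraries carry the right label was not tested. Reads of fat itself were present in every group, at a mean of 349 ± 30.4 CPM (SD, n = 2) in WT X Plus, 641 ± 69.7 CPM (n = 2) in Fd5-5 and 577 ± 107 CPM (n = 3) in WT 6000, so its level does not check the labels.

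Of the 7 genes, 4 were separated completely by the rRNA side of the library, whatever its genotype label. The pouch POU factor nub had a median of 726 CPM over the 21 low-rRNA libraries (518 to 945) and 254 CPM over the 21 high-rRNA libraries (90.0 to 383). The rotund gene rn had 385 CPM (325 to 467) against 101 CPM (30.0 to 145). For dve the medians were 178 CPM (130.0 to 251) and 61.2 CPM (24.0 to 111), and for ap 519 CPM (383 to 632) and 269 CPM (157 to 364). These 4 genes showed no overlap between the sides, which was also true, with the higher level on the low-rRNA side, of 12.1% of all genes tested. Vestigial had 115 CPM (73.4 to 156) against 57.3 CPM (46.9 to 91.8), with 5 high-rRNA libraries inside the low-rRNA range. The intervein gene bs had 72.1 CPM (42.7 to 99.0) against 41.4 CPM (15.0 to 55.1), with 8 inside. Distal-less differed least, with 172 CPM (99.0 to 247) against 149 CPM (29.6 to 197), and 14 high-rRNA libraries lay inside the low-rRNA range. In bulk tissue, fewer cells of a type and less RNA per cell cannot be told apart.

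**Figure D1:**
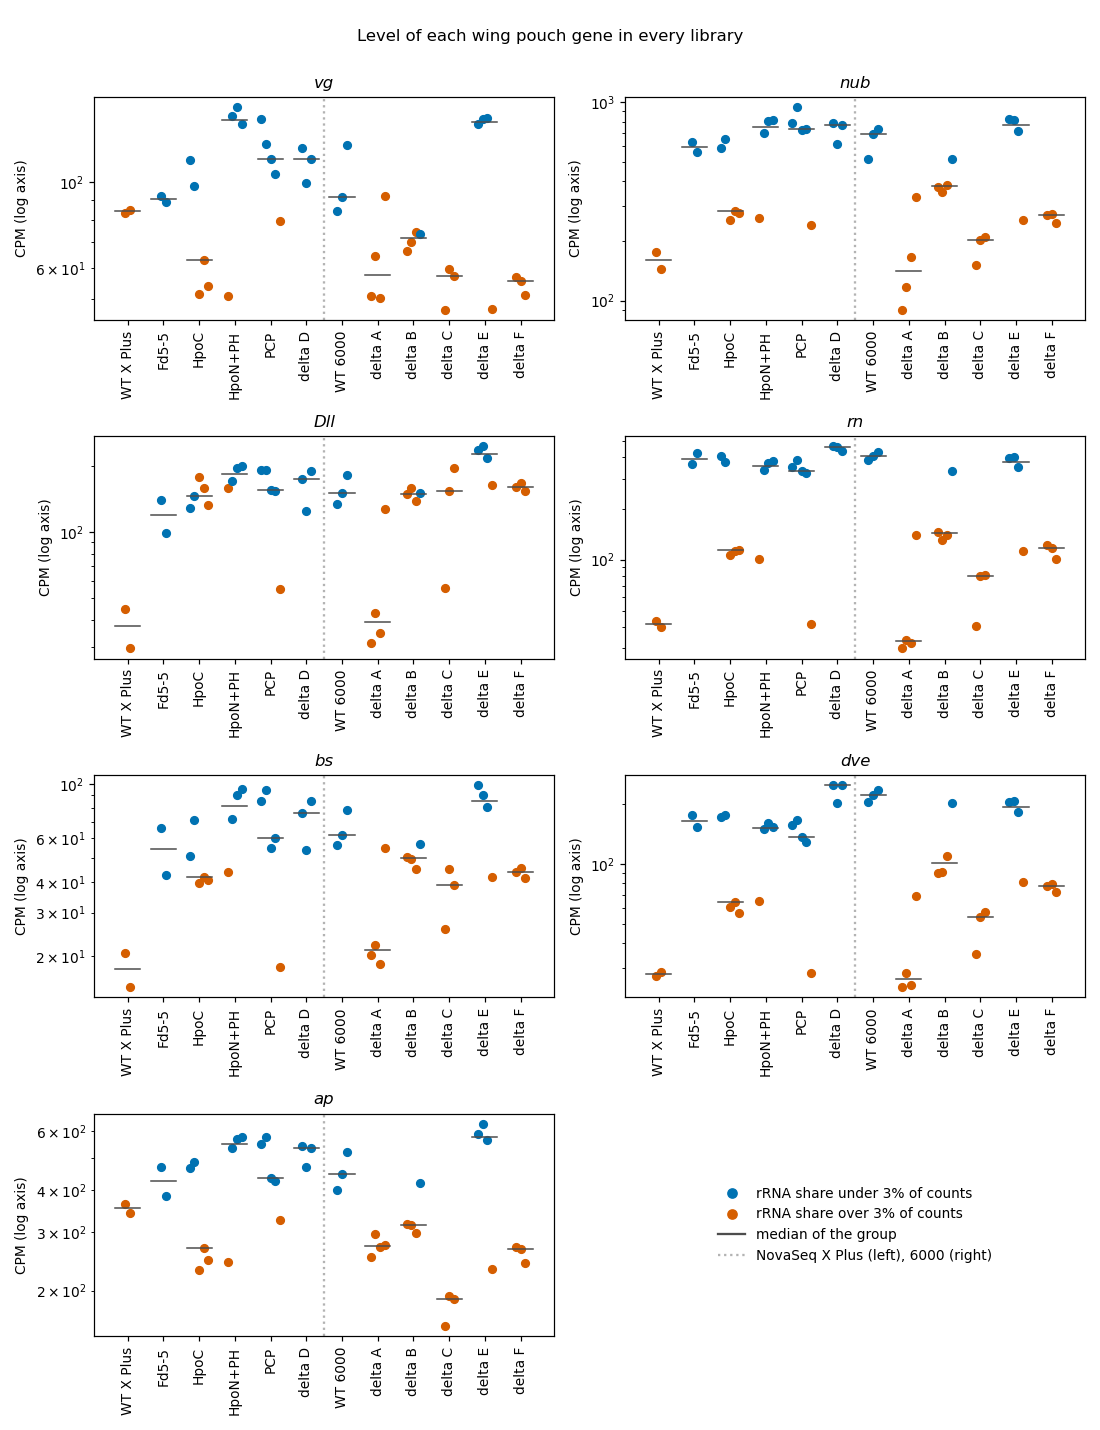
Level of each of the 7 genes in every library (vertical axis, CPM on a log scale) by group (horizontal axis), with low-rRNA and high-rRNA libraries in different colours, a bar at the group median and a dotted line between the sequencers. In the panels of nub, rn, dve and ap the 2 colours separate completely, and in the panel of Dll they overlap in 14 high-rRNA libraries.

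Per kilobase of the longest transcript, nub was the most abundant of the 7 in low-rRNA libraries, with a median of 162 CPM per kb, ahead of ap at 126 CPM per kb. The gene rn stood at 76.8, Dll at 55.4, dve at 36.3, vg at 29.4 and bs at 19.0 CPM per kb. In high-rRNA libraries the order changed: ap led with 65.4 CPM per kb, nub followed at 56.6 and Dll at 48.3, while rn stood at 20.1, vg at 14.7, dve at 12.5 and bs at 10.9 CPM per kb. The longest transcript is a rough measure of length where a gene makes several isoforms, as these genes do.

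A model with the rRNA side as a term beside the group gave its size within groups that held both kinds of library (edgeR's quasi-likelihood test, Benjamini-Hochberg adjustment over all genes tested). These were HpoC, HpoN+PH and PCP on the X Plus and delta B and delta E on the 6000. Each of them except HpoC had 1 library on its smaller side. On the X Plus, 6 of the 7 genes changed with the side, as did 66.9% of all genes. The low-rRNA level exceeded the high-rRNA level by a log2 difference of 2.14 for rn, 1.66 for dve, 1.45 for nub, 1.06 for bs, 0.98 for vg and 0.91 for ap. The difference for Dll was 0.39 (adjusted p = 0.172). On the 6000, 5 of the 7 changed, against 56.4% of all genes. There the log2 differences were 1.56 for rn, 1.21 for dve, 1.10 for nub, 0.94 for ap and 0.88 for vg. For bs and Dll they were 0.71 (adjusted p = 0.108) and 0.30 (adjusted p = 0.612). On both sequencers rn had the largest difference of the 7 and Dll the smallest. What the rRNA share stands for in these discs was not tested.

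**Figure D2:**
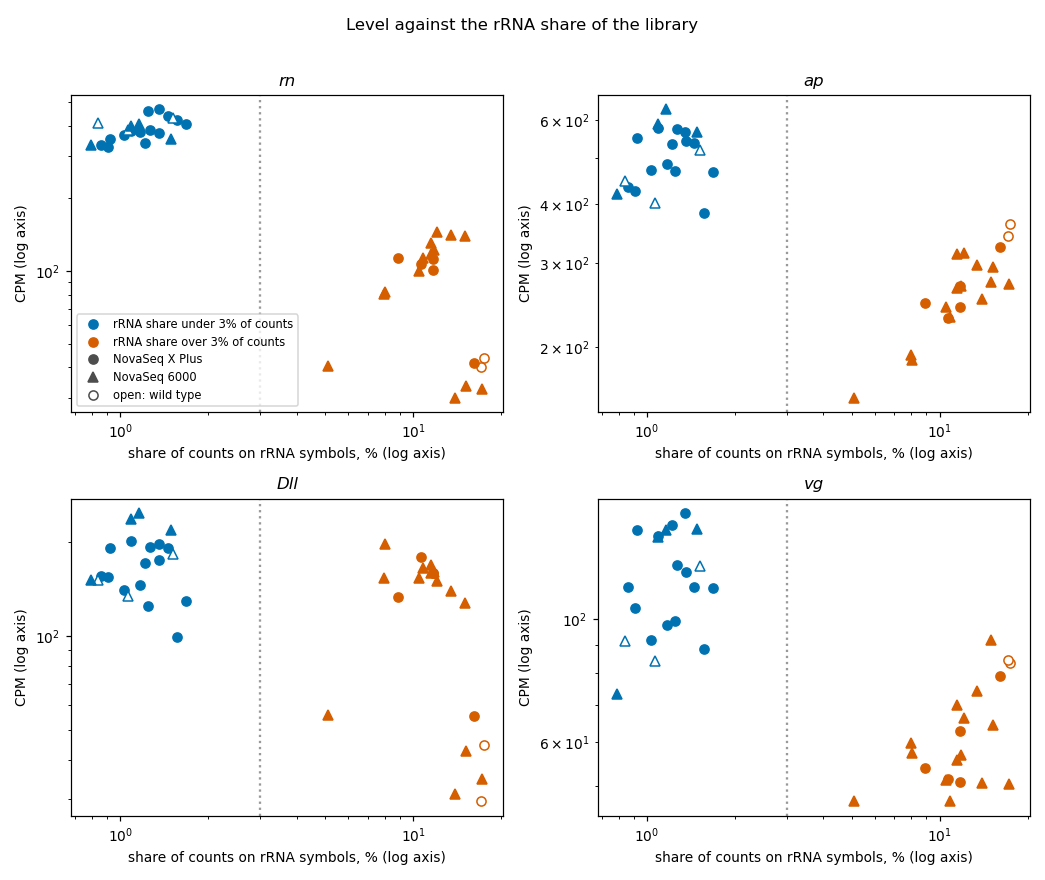
Levels of rn, ap, Dll and vg (CPM, log axis) against the share of counts on rRNA symbols (percent, log axis) in 42 libraries, with circles for the X Plus, triangles for the 6000 and open symbols for wild type. No library lies between 1.68% and 5.11%, and rn and ap separate at that gap, while Dll spans 29.6 to 197 CPM on its right and 99.0 to 247 CPM on its left.

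The dorsal selector ap was among the most abundant members. In WT X Plus it stood at 364 and 343 CPM, and in WT 6000 at 401, 446 and 519 CPM. Fd5-5 libraries held 471 and 383 CPM, and delta D libraries 544, 470.4 and 537 CPM. All 5 of these mutant libraries lay above both WT X Plus libraries, and the delta D range overlapped that of WT 6000. HpoC libraries held 466, 486, 230.3, 269 and 248 CPM, the first pair being the low-rRNA libraries. In HpoN+PH ap was at 243, 534, 568 and 579 CPM, and in PCP at 551, 576, 435, 426 and 325 CPM. In HpoN+PH 1 and PCP 5, the high-rRNA library of each group, ap was the lowest of its group. The lowest ap levels of the study were in delta C, at 157, 192 and 188 CPM, below every other library. In delta F they were 269, 267 and 242 CPM, and in delta A 252, 295, 271 and 275 CPM. The delta B libraries held 316, 314, 298 and 419 CPM, and delta E libraries 588, 632, 567 and 232 CPM. The order of group medians ran from delta E (577.5 CPM) through HpoN+PH, delta D, WT 6000, PCP and Fd5-5 (427 CPM), then WT X Plus (353 CPM) and delta B (315 CPM), then delta A, HpoC and delta F (266.5 CPM), to delta C (188 CPM). Neighbours in this order had overlapping ranges except at the steps from Fd5-5 to WT X Plus, from delta B to delta A and from delta F to delta C.

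The wing selector vg had group medians from 55.7 CPM in delta F to 145 CPM in HpoN+PH. It stood at 83.4 and 84.5 CPM in WT X Plus, and at 84.2, 91.6 and 125 CPM in WT 6000. The ranges of the wild types, 83.4 to 84.5 and 84.2 to 125 CPM, overlap, whereas those of the other 6 genes do not. Its highest levels were in HpoN+PH 2 to 4, with 148, 156 and 141 CPM, in PCP 1 with 145 CPM and in delta E 1 to 3, with 141, 145 and 146 CPM. The other libraries of HpoN+PH and delta E, HpoN+PH 1 and delta E 4, held 51.0 and 47.1 CPM. In delta C vg was at 46.9, 59.7 and 57.3 CPM, and in delta F at 56.9, 55.7 and 51.2 CPM. In delta A it was at 50.8, 64.4, 50.4 and 91.8 CPM. Delta C and delta F lay wholly below WT 6000, and delta A 4 lay inside its range.

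The nub gene stood at 175 and 145 CPM in WT X Plus and at 518, 697 and 733 CPM in WT 6000. Delta D 1 to 3 held 788, 616 and 769.6 CPM, and Fd5-5 held 630 and 563 CPM. The lowest levels were in delta A, with 90.0, 117, 166 and 332 CPM, and in delta C, with 151, 202 and 209 CPM. Delta A 4 was the highest of its group, and the other 3 libraries of delta A overlapped WT X Plus. Group medians fell into 3 runs of overlapping neighbours: delta D, delta E, HpoN+PH, PCP, WT 6000 and Fd5-5 (769.6 to 596 CPM), then delta B, HpoC and delta F (378 to 269.5 CPM), then delta C, WT X Plus and delta A (202 to 141 CPM).

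The rn gene, which is needed in the proximal wing, spanned the widest range in proportion to its level. It stood at 43.6 and 40.3 CPM in WT X Plus, and at 385, 411 and 429 CPM in WT 6000. In Fd5-5 it was at 365 and 424 CPM and in delta D at 467, 458 and 438 CPM, the highest group of the study and above every other library. In HpoC 1 and 2 it was at 406 and 376 CPM, and in HpoC 3 to 5 at 107, 112 and 113 CPM. HpoN+PH 1 held 101 CPM and HpoN+PH 2 to 4 held 339, 372 and 380.2 CPM. PCP 1 to 4 held 351, 385, 334 and 325 CPM, while PCP 5 held 41.9 CPM, within the range of WT X Plus. The delta A libraries held 30.0, 33.6, 32.5 and 139.8 CPM, and delta C libraries 40.4, 80.1 and 81.7 CPM. The delta B libraries held 145, 130.4, 141 and 332 CPM. Delta E was at 399, 404, 352 and 113 CPM and delta F at 122, 118 and 101 CPM. Apart from PCP 5, no high-rRNA library of an X Plus mutant fell to the level of its wild type, and delta A 1 to 3 and delta C 1 were the only 6000 libraries at or below that level.

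The order of dve, a homeobox gene of the pouch, resembled that of rn. It stood at 27.3 and 28.7 CPM in WT X Plus, and at 206, 223 and 237 CPM in WT 6000. Delta D was again highest, with 251, 204 and 249.5 CPM, followed by WT 6000 and delta E. Delta A 1 to 3 held 24.0, 28.3 and 24.8 CPM, like WT X Plus, and delta A 4 held 69.2 CPM. Delta B libraries held 90.8, 91.3, 111 and 204 CPM, and delta F libraries 77.8, 79.4 and 72.4 CPM.

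Distal-less, which marks the dorsal-ventral margin region and the distal pouch, was low in 6 libraries, all of them high-rRNA. It stood at 44.9 and 29.6 CPM in WT X Plus, 55.3 CPM in PCP 5 and 31.3, 42.9 and 34.7 CPM in delta A 1 to 3. The next library was delta C 1 at 56.0 CPM, and the other 35 libraries held 99.0 CPM or more. The 6 lowest libraries had 13.9% to 17.4% of their counts on rRNA symbols. Of the other high-rRNA libraries, delta A 4 had 15.0% and the rest 5.11% to 13.4%. The part of the rRNA share within the high-rRNA side was not tested. In WT 6000 Dll was at 135, 151 and 183 CPM. In Fd5-5 it was at 141 and 99.0 CPM and in delta D at 175, 124 and 191 CPM. HpoC held 129, 146, 179, 159 and 134 CPM, with its 3 high-rRNA libraries inside or above the range of its low-rRNA pair. HpoN+PH libraries held 159, 172, 196 and 201 CPM. In PCP 1 to 4 Dll was at 192, 193, 155 and 154 CPM, all above PCP 5. Delta B was at 149, 159, 139 and 151 CPM, delta F at 160.4, 168 and 154 CPM, and delta C 2 and 3 at 154 and 197 CPM. These 9 libraries all lay above the lowest WT 6000 library. Delta A 4 held 127 CPM, and delta E held 236, 247, 218 and 165 CPM, the first 3 being the highest of the study. Every pair of neighbours in the order of Dll group medians, from delta E (227 CPM) to WT X Plus (37.2 CPM), had overlapping ranges.

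The vein-intervein gene bs was at 20.6 and 15.0 CPM in WT X Plus, and at 56.6, 61.8 and 78.2 CPM in WT 6000. Its lowest 6 libraries were the same 6 as for Dll, with PCP 5 at 18.0 CPM and delta A 1 to 3 at 20.1, 22.1 and 18.5 CPM. The same 6 libraries were also the lowest for dve, and 5 of them were among the lowest 6 for nub and for rn. For vg 2 of them were among the lowest 6, and for ap none was.

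The question put to the X Plus mutants was how each differed from wild type. Against WT X Plus, Dll rose in all 5 mutants, and 2 to 4 further members rose in 4 of them. In Fd5-5 the 3 members that rose were rn (log2 fold change 3.23, SE 0.87, adjusted p = 0.0423), dve (2.56, SE 0.69, adjusted p = 0.0428) and Dll (1.68, SE 0.41, adjusted p = 0.0244), by edgeR's quasi-likelihood test. Of all genes tested, 3.7% rose. The values of nub (1.89, SE 0.59) and bs (1.60, SE 0.54) had adjusted p = 0.0784 and 0.0976, and vg and ap differed by 0.10 and 0.27. All 7 members were higher in both Fd5-5 libraries than in both of wild type, as were 38.7% of all genes. The Fd5-5 calls rested on single libraries: none was left without WT X Plus 1, WT X Plus 2 or Fd5-5 1, and 1 (Dll) without Fd5-5 2.

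In HpoC only Dll rose among the 7 (2.0, SE 0.38, adjusted p = 0.00329 by edgeR), against 3.04% of all genes. The other log2 differences were 2.40 for rn, 1.92 for dve, 1.45 for bs and 1.35 for nub, with adjusted p of 0.108 to 0.209, and -0.15 for vg and -0.06 for ap. The libraries of nub, Dll, rn, bs and dve lay wholly above those of wild type, as did those of 10.3% of all genes. Without WT X Plus 2, the Dll call was lost. HpoC 3 to 5 share the high-rRNA side with WT X Plus, though at rRNA shares of 8.88% to 11.7% against 17.1% and 17.4%. In that comparison all 7 members changed, against 46.4% of all genes in either direction. Dll rose by 2.11 (SE 0.19) on the log2 scale, rn by 1.44 (SE 0.069), bs by 1.23 (SE 0.13), dve by 1.16 (SE 0.085) and nub by 0.80 (SE 0.096). In the same libraries vg fell by 0.54 (SE 0.089) and ap fell by 0.47 (SE 0.081). When the smaller rRNA sides of all mixed X Plus groups were left out, HpoC 1 and 2 among them, the same 7 changed, against 27.9% of all genes.

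In HpoN+PH Dll (2.28, SE 0.39, adjusted p = 0.00161), bs (2.07, SE 0.51, adjusted p = 0.0217) and nub (2.01, SE 0.55, adjusted p = 0.0423) rose in edgeR's test, as did 3.76% of all genes. The values of rn (2.82, SE 0.81) and dve (2.23, SE 0.64) had adjusted p = 0.0533 and 0.0516, and those of vg and ap were 0.55 and 0.44. The 5 genes nub, Dll, rn, bs and dve did not overlap with wild type, as was the case for 15.3% of all genes in that direction. Calls fell to 1 (Dll) without WT X Plus 1, HpoN+PH 3 or HpoN+PH 4 and to 0 without WT X Plus 2, and rose to 5 without HpoN+PH 1. HpoN+PH 1, on the same rRNA side as wild type, is 1 library, with an rRNA share of 11.7%. A fit of it takes its spread from WT X Plus and HpoC 3 to 5, as if it varied like them. That fit called 7 members, against 35.5% of all genes. There Dll rose by 2.13 (SE 0.23), bs by 1.34 (SE 0.16), rn by 1.30 (SE 0.086), dve by 1.26 (SE 0.11) and nub by 0.74 (SE 0.12), while ap fell by 0.50 (SE 0.11) and vg fell by 0.68 (SE 0.12). With HpoN+PH 1 left out together with the smaller sides of the other mixed groups, all 7 rose, against 58.8% of all genes changed. In that fit vg rose by 0.81 (SE 0.13) and ap by 0.66 (SE 0.14), so the sign for vg and ap depended on which HpoN+PH libraries were used.

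In PCP nub (2.09, SE 0.54, adjusted p = 0.0375), Dll (2.0, SE 0.38, adjusted p = 0.00393) and bs (1.81, SE 0.49, adjusted p = 0.0491) rose in edgeR's test, as did 3.53% of all genes. The values of rn and dve were 2.77 (SE 0.79) and 2.14 (SE 0.62), with adjusted p = 0.0663 and 0.0707. Because PCP 5 lay at or near the wild-type levels, the libraries of nub and Dll alone did not overlap with wild type, as for 12.5% of all genes. PCP 5 by itself has no replicate on its rRNA side, and its rRNA share was 16.1%. A fit of it against WT X Plus takes its spread from WT X Plus and HpoC 3 to 5, as if PCP 5 varied like them. In that fit nub was called at 0.61 and none of the other 6 was, against 2.2% of all genes. Without the smaller rRNA sides of mixed groups, PCP 5 among them, all 7 rose, against 57.6% of all genes changed, led by rn at 3.05 (SE 0.10) and with ap at 0.48 (SE 0.13). Without PCP 5 alone, 5 members rose, without WT X Plus 2 none did, and without WT X Plus 1 or any of PCP 1 to 4 the count was 1.

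In delta D 5 members rose in edgeR's test, rn (3.43, SE 0.85, adjusted p = 0.0138), dve (3.06, SE 0.68, adjusted p = 0.00784), nub (2.17, SE 0.57, adjusted p = 0.0179), Dll (2.13, SE 0.40, adjusted p = 0.00245) and bs (2.0, SE 0.52, adjusted p = 0.0170). Of all genes, 11.2% rose. The differences of ap (0.54) and vg (0.41) had adjusted p = 0.254 and 0.413. All 7 members lay wholly above wild type, as did 37.1% of all genes. The count fell to 1 without WT X Plus 1 and to 0 without WT X Plus 2. Across the 5 X Plus comparisons the median member log2 difference was 1.45 to 2.13, beside medians of all genes between -0.05 and 0.04. DESeq2 called 5 members in each of Fd5-5, HpoN+PH, PCP and delta D and 4 in HpoC, while a fit of PCP and wild type alone called 0. These 5 comparisons share the same pair of wild-type libraries. In Fd5-5 and delta D every mutant library was low-rRNA and both wild-type libraries high-rRNA, so within these groups genotype and rRNA side cannot be told apart. With the side as a term, estimated from the mixed groups, nub (0.73), Dll (1.74), rn (1.29) and dve (1.40) of delta D passed the threshold, against 7.69% of all genes. On the X Plus the high-rRNA side of HpoN+PH and of PCP was 1 library each, which limits this term. In Fd5-5 rn (1.09, adjusted p = 0.0396 by edgeR) remained higher and vg (-0.88, adjusted p = 0.0407) was lower, against 3.64% of all genes, while Dll and dve had adjusted p = 0.142 and 0.0663. In the same fit ap turned to -0.64 in Fd5-5, and vg and ap to -0.57 and -0.36 in delta D.

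**Figure D3:**
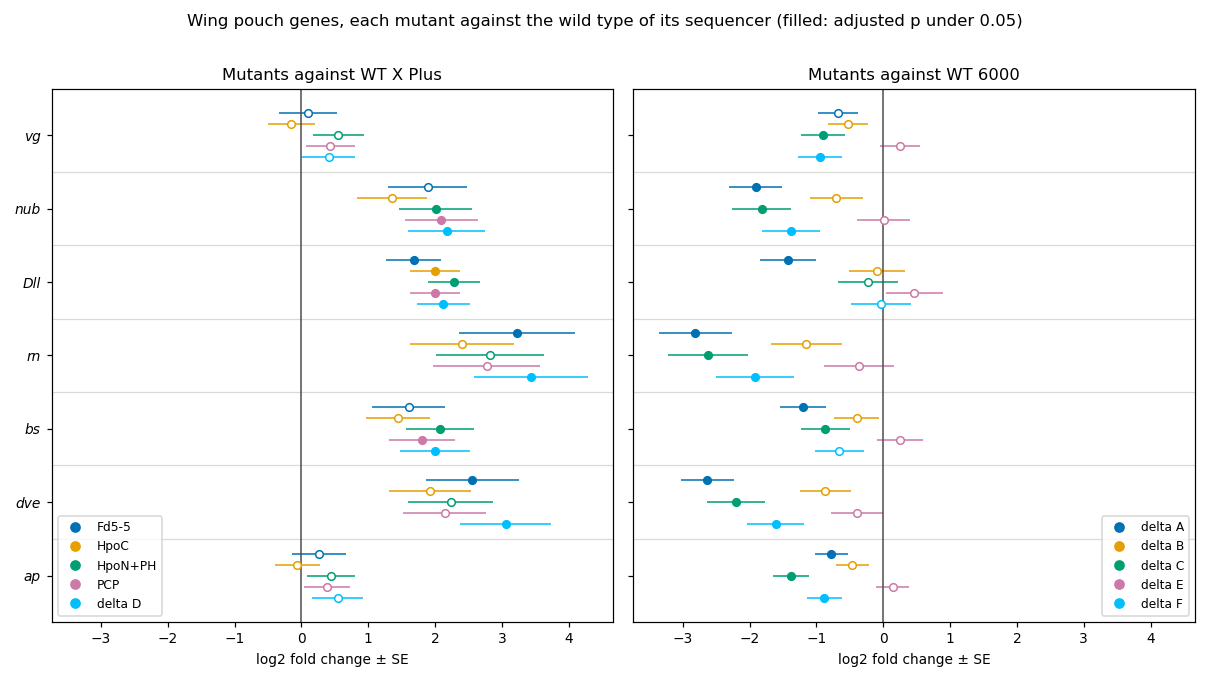
Log2 fold change of each of the 7 genes in every mutant against the wild type of its own sequencer (left, X Plus; right, 6000), with standard errors as bars and filled symbols for adjusted p under 0.05 in edgeR's quasi-likelihood test. Most X Plus values lie above 0, with vg and ap nearest to it, and the values of delta A, delta C and delta F lie below 0, except that Dll of delta C and delta F is near 0.

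On the 6000 the members moved the other way in 3 mutants. In delta A 6 of the 7 fell in edgeR's test, against 28.1% of all genes. The log2 fold changes were -2.81 for rn (SE 0.55, adjusted p = 0.00131), -2.63 for dve (SE 0.40, adjusted p = 0.000365), -1.91 for nub (SE 0.40, adjusted p = 0.00175), -1.43 for Dll (SE 0.42, adjusted p = 0.00908), -1.21 for bs (SE 0.34, adjusted p = 0.00765) and -0.78 for ap (SE 0.24, adjusted p = 0.0132). The value for vg was -0.67 (SE 0.30, adjusted p = 0.0621). The same 6 genes lay wholly below wild type, as did 29.8% of all genes. Without delta A 4 all 7 fell.

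In delta C 6 members fell in edgeR's test, against 32% of all genes. They were rn (-2.62, SE 0.60, adjusted p = 0.00129), dve (-2.20, SE 0.43, adjusted p = 0.000483), nub (-1.82, SE 0.44, adjusted p = 0.00174), ap (-1.38, SE 0.27, adjusted p = 0.000448), vg (-0.90, SE 0.32, adjusted p = 0.0214) and bs (-0.87, SE 0.37, adjusted p = 0.0477). The same 6 lay wholly below wild type, as did 36% of all genes. For Dll the value was -0.23 (SE 0.45, adjusted p = 0.665). Without WT 6000 replicate 3 or without delta C 1 the count was 4. With a trend on transcript length removed it was 2, and vg and bs turned to 0.059 and 0.024.

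In delta F 5 members fell in edgeR's test, against 28.5% of all genes: rn (-1.92, SE 0.59, adjusted p = 0.0113), dve (-1.61, SE 0.43, adjusted p = 0.00545), nub (-1.38, SE 0.43, adjusted p = 0.0128), vg (-0.95, SE 0.32, adjusted p = 0.0203) and ap (-0.88, SE 0.27, adjusted p = 0.0102). The values of bs and Dll were -0.66 (SE 0.37, adjusted p = 0.135) and -0.03 (SE 0.45, adjusted p = 0.964). All but Dll lay wholly below wild type, as did 34.7% of all genes. The median member log2 difference was -1.43 in delta A, -1.38 in delta C and -0.95 in delta F, with medians of all genes between -0.03 and 0.05. All libraries of these 3 mutants were high-rRNA and all of WT 6000 low-rRNA, so genotype and rRNA side cannot be told apart. With the side as a term, none of the 7 passed the threshold in any of the 3 (at an unadjusted p under 0.05, 1 in delta A, 1 in delta C and 0 in delta F). On the 6000 this term was estimated from delta B and delta E, whose smaller sides were 1 library each (delta B 4 and delta E 4). The lack of calls therefore does not tell side from genotype. In that edgeR fit 4.22%, 13% and 0.281% of all genes were called, and ap turned to 0.16 in delta A and 0.057 in delta F. With the length trend removed, 1 member was called in delta F.

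In delta B and delta E no member passed the threshold in edgeR's test, while 32.2% and 5.13% of all genes did. At an unadjusted p under 0.05 the members numbered 2 in delta B and 0 in delta E, and DESeq2 gave 0 in each. In delta B the largest differences were those of rn (-1.15, SE 0.53, adjusted p = 0.0902) and dve (-0.87, SE 0.39, adjusted p = 0.0829). The libraries of vg, rn and dve lay wholly below wild type, as did 14% of all genes. Without delta B 4, the low-rRNA library, rn and dve fell. When the smaller sides of all mixed 6000 groups were left out, 5 members of delta B fell, against 64.4% of all genes changed: rn by a log2 value of -1.59 (SE 0.47), dve -1.22 (SE 0.32), nub -0.84 (SE 0.34), ap -0.59 (SE 0.10) and vg -0.54 (SE 0.20). Delta B 4, the 1 library on the same rRNA side as its wild type, differed from WT 6000 by log2 values of -0.46 for vg to -0.06 for Dll. A fit with the spread of WT 6000 and delta E 1 to 3 called 0% of all genes there, so it says nothing about the 7. In delta E the values ran from -0.40 for dve to 0.46 for Dll (SE 0.42, adjusted p = 0.571). Delta E 1 to 3 alone against WT 6000, all low-rRNA, gave Dll higher by 0.57 (SE 0.13, adjusted p = 0.0295), with 14.4% of all genes called. Without the smaller sides in a fit of all 6000 groups, ap alone was called (0.39, SE 0.10, adjusted p = 0.0160), against 15.8% of all genes.

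The wild types themselves differed. WT X Plus was lower than WT 6000 in 5 members by edgeR's test in a fit of all 42 libraries, against 11% of all genes. The log2 differences were -3.28 for rn (SE 0.81, adjusted p = 0.00662), -2.99 for dve (SE 0.62, adjusted p = 0.00225), -2.07 for Dll (SE 0.48, adjusted p = 0.00475), -2.02 for nub (SE 0.54, adjusted p = 0.0114) and -1.88 for bs (SE 0.49, adjusted p = 0.00899). The values of ap and vg were -0.37 (adjusted p = 0.401) and -0.26 (adjusted p = 0.617). All but vg lay wholly below WT 6000, as did 31.8% of all genes. The count fell to 2 (Dll and dve) without WT X Plus 1 and to 0 without WT X Plus 2. Sequencer, rRNA side and any other difference between these sets of wild-type libraries cannot be told apart.

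Mutants on the same rRNA side were also compared with each other, which leaves the wild types out. Fd5-5 and delta D, both wholly low-rRNA, gave no called member in edgeR's fit of all X Plus groups, with 0.613% of all genes called. Log2 differences of Fd5-5 minus delta D ran from -0.50 to -0.20, no member was under an unadjusted p of 0.05, and DESeq2 gave 0. The comparisons with delta D that follow used a fit of low-rRNA libraries only, with a smaller spread, so their calls are not like for like. In such a fit Fd5-5 against delta D gave 1 called member. HpoC 1 and 2 against delta D gave no called member (1 at an unadjusted p under 0.05, which was dve at -0.41, and 1 by DESeq2), with 4.65% of all genes called. HpoN+PH 2 to 4 differed from delta D in 3 members, against 25.3% of all genes: vg was higher (0.40, SE 0.12, adjusted p = 0.0332 by edgeR), and rn (-0.33, SE 0.09, adjusted p = 0.0216) and dve (-0.61, SE 0.11, adjusted p = 0.00323) were lower. The count was 1 without HpoN+PH 2 or delta D 2 and 2 without any other library of this comparison. PCP 1 to 4 differed from delta D in rn (-0.40, SE 0.08, adjusted p = 0.00485) and dve (-0.68, SE 0.10, adjusted p = 0.000869), both lower, against 34.5% of all genes. These comparisons share the delta D libraries. The share of members called was thus not above that of all genes for PCP or HpoC. Other tissues' genes moved in the same comparisons: against delta D, 9 of 14 notum genes and 5 of 6 salivary gland genes rose in both HpoN+PH and PCP, 5 of 6 myoblast genes in HpoN+PH and 4 in PCP, and 5 of 6 fat body genes in PCP. Their part in the members' differences was not tested.

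Among the high-rRNA mutants of the 6000, delta A and delta C gave no called member in edgeR's fit of all 6000 groups (2 at an unadjusted p under 0.05, and 0 by DESeq2), with 6.17% of all genes called. Dll was lower in delta A than in delta C by -1.20 (SE 0.42, adjusted p = 0.0842) and ap higher by 0.60 (SE 0.25, adjusted p = 0.129). Against delta F, delta A gave no called member (2 at an unadjusted p under 0.05, and 1 by DESeq2), with 4.97% of all genes called and Dll at -1.40 (SE 0.42, adjusted p = 0.0615). Without delta A 4 the count became 2 against delta C (Dll and bs) and 4 against delta F (Dll, rn, bs and dve). Delta C and delta F gave none (0 at an unadjusted p under 0.05, and 0 by DESeq2), with 0.213% of all genes called. In a fit of high-rRNA libraries only, with a smaller spread, delta B 1 to 3 against delta F gave none (1 at an unadjusted p under 0.05, which was ap at 0.29, and 1 by DESeq2), with 14.4% of all genes called. With high-rRNA libraries only, delta A against delta C and delta C against delta F gave 1 called member each, and delta A against delta F gave 0.

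Dll and ap moved apart within the high-rRNA libraries. The within-library ratio of Dll CPM to ap CPM had a median of 0.346 on the low-rRNA side (0.258 to 0.402) and ran from 0.086 to 1.05 on the high-rRNA side (median 0.507). The 6 libraries below the low-rRNA range of this ratio were WT X Plus 1 and 2, PCP 5 and delta A 1 to 3, which were also among the libraries where differentiated muscle genes were highest. The summed level of 8 muscle genes was 764 and 1379 CPM in WT X Plus, 574 CPM in PCP 5, 612.5, 393, 642 and 463 CPM in delta A 1 to 4, and 423 CPM in delta C 1. In the other 34 libraries it was 16.8 to 202 CPM. Of these 8 libraries, 7 were the libraries with Dll at 56.0 CPM or less, and the exception was delta A 4, with Dll at 127 CPM. The part of the muscle genes in the levels of Dll, bs, dve, nub and rn was not tested.

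**Figure D4:**
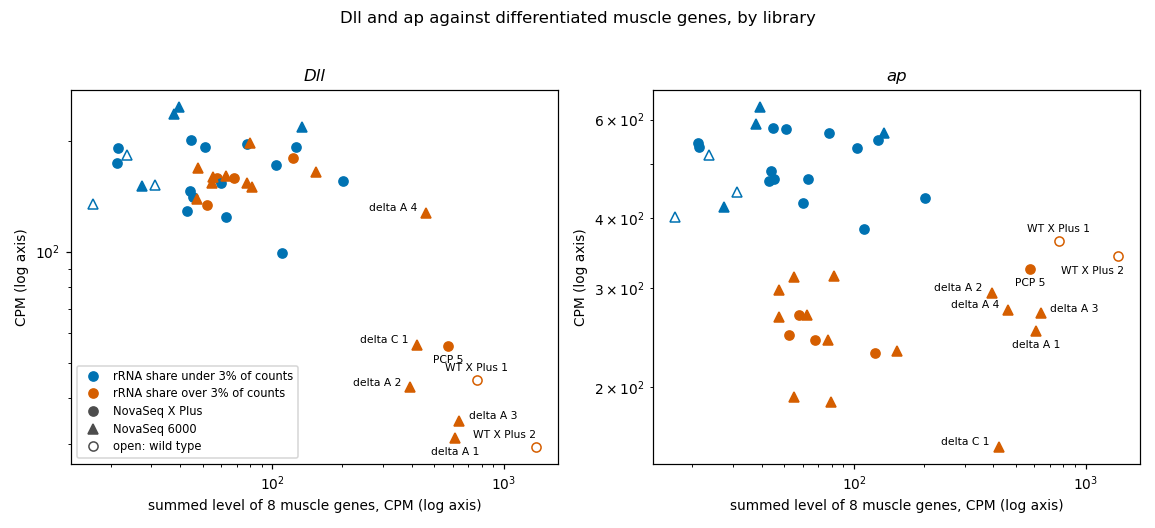
Levels of Dll (left) and ap (right), in CPM on a log axis, against the summed CPM of 8 differentiated muscle genes (log axis) in 42 libraries, with libraries above 300 CPM of muscle genes named. Of the 8 named libraries, 7 hold Dll at 56.0 CPM or less, while their ap levels of 157 to 364 CPM fall within the range of the other high-rRNA libraries or above it, apart from delta C 1.

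Markers of other tissues moved with some of the same groups. The summed level of the Hox genes Ubx, which marks the haltere disc, and abd-A was 11.9 to 12.8 CPM in WT X Plus. In all low-rRNA libraries it was 7.34 to 25.0 CPM. It was 48.3 to 96.1 CPM in HpoC 3 to 5, 94.3 CPM in HpoN+PH 1, 112 CPM in delta E 4, 73.2 to 127 CPM in delta C and 51.5 to 100.2 CPM in delta F. In WT 6000, delta C and delta F abd-A was at 0 in every library. Salivary gland genes summed to 33.9 to 88.8 CPM in WT X Plus and 74.3 to 205 CPM in delta A, and 0.068 to 175 CPM in low-rRNA libraries. Fat body genes, 6 in number, summed to 42.1 and 55.7 CPM in WT X Plus, 13.1 to 25.8 CPM in WT 6000 and 14.9 to 106 CPM in delta D. They were highest in delta A 4 (14944 CPM), PCP 2 (13877 CPM), PCP 4 (10749 CPM), Fd5-5 2 (10363 CPM) and HpoC 1 (10307 CPM), while HpoC 3 to 5 held 3.13 to 4.83 CPM. None of the 6 changed in an X Plus mutant in edgeR's test, and all 6 rose in delta A. Notum genes summed to 850.1 to 1480.0 CPM in low-rRNA libraries and 452 to 799.9 CPM in high-rRNA libraries, so their sum was lower on the same side as the pouch genes. Some genes of this list went the other way. By edgeR's test ac and sc rose in delta A, delta B, delta C, delta E and delta F, so also in the mutant whose libraries were mostly low-rRNA. Between the wild types ac, sc and pnr were higher in WT X Plus, and 7 genes of the list were lower. In delta D ac and pnr fell, and in Fd5-5 pnr fell. Among 11 leg disc genes, of which ap is one, dac, a regulator of intermediate leg segments, rose in all 5 X Plus mutants. It rose from 3.47 ± 0.312 CPM (SD, n = 2) in WT X Plus to 33.0 ± 0.991 CPM (n = 2) in Fd5-5 and 39.1 ± 14.9 CPM (n = 3) in delta D. The number of leg genes that rose was 1 in Fd5-5 and 3 in each of the other 4 mutants, bab1 among them, with none falling. Of all genes, 3.7% rose in Fd5-5, 3.04% in HpoC, 3.76% in HpoN+PH, 3.53% in PCP and 11.2% in delta D. The list's median log2 difference was 2.30 in Fd5-5, 2.99 in HpoC, 3.08 in HpoN+PH, 2.95 in PCP and 2.50 in delta D, the comparisons in which Dll, a leg gene too, rose. On the 6000 the leg genes split: ap, bab2 and ss fell in delta A and delta C, and ap and ss in delta F. Lim1, Sp1 and al rose in delta C, and al rose in delta B. Between the wild types dac, bab1 and bab2 were lower in WT X Plus, with a list median of -2.51. The share of these tissues in the members' levels was not tested.

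Among 8 partners and hinge regulators of the selectors, none changed in any X Plus mutant in edgeR's test. In delta A 6 fell, in delta B 3, in delta C 6 and in delta F 5, and in delta C Chi and hth rose. Of all genes, 28.1% fell in delta A, 32% in delta C and 28.5% in delta F, and 32.2% changed in delta B, to which 3 of 8 is close. Their median log2 difference was -0.64, -0.49, -0.99 and -0.84 in these 4 mutants. The gene sd, whose product carries Vg to DNA, stood at 549 CPM in WT X Plus on average and 563.5 ± 61.8 CPM (SD, n = 3) in WT 6000. It was at 367 ± 21.7 CPM (n = 4) in delta A and 292 ± 21.0 CPM (n = 3) in delta C. The proximal gene tsh fell from 461 ± 43.1 CPM (n = 3) in WT 6000 to 205 ± 20.2 (n = 4) in delta A, 123 ± 8.66 (n = 3) in delta C and 212 ± 4.85 CPM (n = 3) in delta F. The hinge gene zfh2 fell most, from 1043 ± 268 CPM (n = 3) to 61.3 ± 1.16 CPM (n = 3) in delta C, a log2 fold change of -4.12, and to 99.9 ± 3.81 CPM (n = 3) in delta F (-3.46).

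Of 16 other genes patterned within the pouch, 1 rose in each of Fd5-5, HpoC, HpoN+PH and PCP and 4 in delta D, and none fell in any of these 5. These counts are near the 3.04% to 3.76% of all genes that rose in the first 4, and 4 of 16 stands beside 11.2% in delta D. The vein gene kni rose from 21.6 ± 1.08 CPM (n = 2) in WT X Plus to 52.5 ± 8.41 CPM (n = 2) in Fd5-5 (log2 fold change 1.28, adjusted p = 0.0255 by edgeR). In HpoN+PH kn, the gene of the central intervein region, rose from 7.07 ± 3.39 to 57.6 ± 23.3 CPM (n = 4; 3.02, adjusted p = 0.0255). On the 6000, 11 fell and 2 rose in delta A, 2 fell and 1 rose in delta B, 9 fell and 2 rose in delta C, and 9 fell and 1 rose in delta F, where 28.1%, 32% and 28.5% of all genes fell in delta A, delta C and delta F. In delta E ab, a gene of vein pattern, fell from 503 ± 29.1 to 216 ± 31.7 CPM (n = 4; -1.23), and rho, a protease of the epidermal growth factor pathway, rose from 8.22 ± 2.90 to 23.2 ± 2.88 CPM (1.48). The list's median log2 difference was between 0.05 and 0.77 in the X Plus mutants and between -0.94 and -0.12 in the 6000 mutants.

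Of 12 genes of the dorsal-ventral boundary and targets of Ap, caps rose in all 5 X Plus mutants. This gene of a leucine-rich-repeat adhesion protein rose from 55.7 ± 8.55 CPM (n = 2) in WT X Plus to 157 ± 24.9 CPM (n = 2) in Fd5-5 (1.49, adjusted p = 0.0243 by edgeR) and 201 ± 9.69 CPM (n = 3) in delta D (1.84, adjusted p = 0.00261). In delta D Dr and fng rose as well and E(spl)mbeta-HLH fell. Dr, a homeobox gene, had the largest difference, at 15.9 ± 0.740 CPM in WT X Plus and 363 ± 31.7 CPM in delta D (4.50, adjusted p = 0.0401). It stood at 366 ± 26.8 CPM in WT 6000, 24.2 ± 11.3 CPM in delta A, 20.1 ± 2.97 CPM in delta C and 41.7 ± 14.9 CPM in delta F. Like rn and dve, it was thus high in WT 6000 and delta D and low in the other 4 groups named. In delta A 7 of the 12 fell and 2 rose, in delta C 6 and 2, and in delta F 5 and 2, while in delta B 1 rose and in delta E none changed, beside the shares of all genes given above.

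The genes whose levels ran most like each member were taken by Spearman's rho over the 21 low-rRNA and the 21 high-rRNA libraries separately, ranked by the smaller of the rho values. For vg they were vvl (0.808 low, 0.806 high), nkd (0.886 and 0.790) and Usp1. For nub they were Samuel (0.913 and 0.971), brun and pk, and for bs mam (0.944 and 0.874), CG42389 and pk. The nearest to Dll was Wnt6 (0.805 and 0.871), followed by lmgB and mub. For rn they were Synj (0.888 and 0.891), Br140 and Eps-15, and for dve mura (0.866 and 0.938), drl and CG42668. For ap they were Dad (0.929 and 0.953), Smurf (0.923 and 0.921) and pod1. The points share groups, sequencers and depth, so these values are descriptions.

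Between the members the likeness depended on the side. Ranked by the smaller rho, the first 5 of the 21 pairs were nub with bs (rho 0.883 low, 0.801 high), vg with ap (0.835 and 0.751), rn with dve (0.684 and 0.905), Dll with bs (0.917 and 0.560) and nub with Dll (0.881 and 0.513), each over 21 libraries a side. Dll ran with ap on the low-rRNA side (0.882) and against it on the high-rRNA side (-0.500), and Dll with vg changed from 0.822 to -0.234. In the other direction, nub and rn were unrelated on the low-rRNA side (0.062) and close on the high-rRNA side (0.958).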

How the data were processed

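Each value is an estimated count for 1 gene in 1 of 42 libraries, deposited by the authors without normalization; the libraries were made from 10 ng of RNA by 12 to 15 PCR cycles with paired reads of 150 bases, per the labels. Trimmomatic 0.33, FastQC 0.10, Salmon 1.80, edgeR and dm6 are named per the submitters' processing notes. Estimated counts were rounded to whole numbers. Groups came from the sample labels. Gene identifiers (17083 of 17208 matched) took positions from the Ensembl BDGP6 annotation.

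Each sequencer's groups were fitted together in edgeR 4.0.16 (R 4.3.3, limma 3.58.1) with TMM factors, filterByExpr and the quasi-likelihood test, 15 residual degrees of freedom each (10775 genes on the X Plus, 10338 on the 6000). The wild types were compared in a fit of all 42 libraries (11294 genes), and mutants within 1 rRNA side in fits of that side, a comparison chosen after seeing the data. P-values were adjusted by Benjamini-Hochberg over all genes tested, with a threshold of 0.05. The pipeline was tested on simulated counts with the same spread for every gene and no rRNA sides, unlike these data, so this checked the code only. Alternatives were DESeq2 1.42.0, its size factors, no filter, other sets of libraries, the rRNA side as a term, rRNA symbols left out, a transcript-length trend (loess, span 0.3), a replicate block and leaving out each library. Same-numbered libraries did not deviate together, so numbers were not taken as pairs.

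The members and gene lists were chosen with earlier results of these data known. Named genes were the 7 members, fat, up to 3 genes of smallest p per list and comparison, and the 3 most alike to each member. PCR copies cannot be told from molecules.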

Additional observations from a re-analysis of the deposited data

Results flagged for a closer look

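Single libraries lay far from the rest of their group in 18 of the 42 gene and group combinations that could be tested, by Dixon's test on log2 CPM in groups of 4 or 5 libraries. Chance picks about 1 in 20. Most were the 1 library of its group on the other side of the 3% rRNA limit, and no cause was tested. HpoN+PH 1, high in rRNA, was far below its group in vg (51.0 CPM), nub (261 CPM), rn (101 CPM), dve (65.1 CPM) and ap (243 CPM). Delta E 4, also high in rRNA, was far below in vg (47.1 CPM), nub (255 CPM), rn (113 CPM), dve (81.7 CPM) and ap (232 CPM). PCP 5, the high-rRNA library of its group, was far below in nub (240.5 CPM), Dll (55.3 CPM), rn (41.9 CPM) and dve (28.3 CPM). Delta B 4, low in rRNA, was far above its group in rn (332 CPM). Delta A 4 was far above in rn (139.8 CPM), bs (55.1 CPM) and dve (69.2 CPM) although all 4 libraries of delta A are high in rRNA.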

How the results depend on the processing

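Counts of called members and log2 fold changes are given under each alternative that moved a count by over 1.5 times or turned a sign, in the order of the report. The cause was not tested in any of these cases. The DESeq2 size factors and leaving out rRNA symbols moved no count of called members by over 1.5 times. With DESeq2's Wald test the members called numbered 5 in Fd5-5, 4 in HpoC, 5 in HpoN+PH and 5 in PCP, against 3, 1, 3 and 3 with edgeR, and 1 each for delta A against delta F, HpoC against delta D and delta B against delta F. In 1 fit of all libraries they numbered 5 in Fd5-5, 2 in HpoC, 5 in HpoN+PH, 5 in PCP, and 1 for delta A against delta C and against delta F, and Dll of delta F was 0.042. With only the 2 groups compared they were 5 in Fd5-5, 0 in PCP, 1 for delta A against delta C and 3 for delta C against delta F, and Dll of delta F was 0.0056. Without a filter the count was 1 in Fd5-5, and ap of HpoC was 0.0018.

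With the length trend removed the counts were 5 in Fd5-5, HpoC, HpoN+PH and PCP, 2 in delta C, 1 in delta F, 3 for delta A against delta C, 5 for delta A against delta F and 1 for HpoC against delta D. The values of vg and ap turned to -0.65 and -0.54 in Fd5-5, -0.078 and -0.22 in HpoN+PH, -0.18 and -0.28 in PCP, -0.31 and -0.25 in delta D, and 0.37 and 0.32 between the wild types. Also turned were Dll of delta B (0.044), delta C (0.22) and delta F (0.32), bs of delta C (0.024) and delta F (0.0057), vg of delta C (0.059), vg of delta A against delta C (-0.10), bs of delta C against delta F (0.018) and bs of delta B against delta F (-0.042).

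With the rRNA side as a term the counts were 6 in HpoC, 0 in delta A, delta C and delta F, and 2 for the wild types, delta A against delta C and delta A against delta F. The values of vg and ap were -0.88 and -0.64 in Fd5-5, -0.29 and -0.32 in HpoN+PH, -0.36 and -0.35 in PCP, -0.57 and -0.36 in delta D, 0.20 and 0.16 in delta A, and 0.68 and 0.54 between the wild types. Delta B turned to 0.17 for vg, 0.13 for nub, 0.14 for Dll, 0.14 for bs and 0.24 for ap, delta C to 0.070 for Dll, and delta F to 0.27 for Dll, 0.055 for bs and 0.057 for ap. With only libraries on the reference group's side of 3% the counts were 7 in HpoC, 7 in HpoN+PH, 1 in PCP and 1 in delta E, and 1 each for Fd5-5 against delta D, delta A against delta C and delta C against delta F. In those libraries vg and ap were -0.68 and -0.50 in HpoN+PH and -0.068 and -0.10 in PCP. Without the smaller side of mixed groups, an alternative chosen after seeing the data, the counts were 5 in Fd5-5, 7 in HpoC, HpoN+PH and PCP, 5 in delta B, 1 in delta E, 1 for Fd5-5 against delta D, 2 for delta A against delta C and against delta F, and 1 for delta C against delta F. Without libraries nearer another label they were 6 in Fd5-5, 7 in HpoN+PH and PCP, 2 for Fd5-5 against delta D, and 1 for delta A against delta C and for delta C against delta F, and HpoC, delta B and delta E had no library left.

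With a replicate block the counts were 3 in HpoC, 5 in HpoN+PH, 5 in PCP, 2 in delta B, 1 for delta A against delta F and 3 for delta B against delta F. Under the block vg and ap of HpoC were 0.017 and 0.11, and nub of delta E was -0.0038. The block does not pair discs: same-numbered libraries had a mean correlation of deviations of -0.00806 on the X Plus and -0.0342 on the 6000.

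Leaving out each library in turn gave 0 to 1 called members in Fd5-5 and HpoC, 0 to 5 in HpoN+PH, PCP, delta D and between the wild types, 5 to 7 in delta A, 0 to 2 in delta B, 4 to 6 in delta C, 0 in delta E, 4 to 5 in delta F, 0 to 2 for delta A against delta C, 0 to 4 for delta A against delta F, 1 to 2 for HpoN+PH against delta D and 2 for PCP against delta D. The others stayed at 0.

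Some log2 differences near 0 turned sign when 1 library was left out, with these ranges. Against wild type, ap of HpoC ran from -0.22 to 0.050, Dll of delta B from -0.20 to 0.040, Dll of delta C from -0.60 to 0.15, Dll of delta F from -0.13 to 0.11 and nub of delta E from -0.13 to 0.28. For delta A against delta C, vg ran from -0.011 to 0.34, nub from -0.62 to 0.14 and rn from -1.10 to 0.039. For delta C against delta F, vg ran from -0.018 to 0.15 and Dll from -0.57 to 0.17. Against delta D, HpoC ran from -0.19 to 0.023 for vg and from -0.49 to 0.00089 for bs, HpoN+PH from -0.021 to 0.16 for nub, and PCP from -0.10 to 0.19 for Dll, -0.15 to 0.16 for bs and -0.15 to 0.011 for ap.

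The number of genes called over the whole table also depended on these settings. It was 482 in Fd5-5 (69 to 6554 over the alternatives), 412 in HpoC (105 to 4658), 522 in HpoN+PH (83 to 6670), 389 in PCP (18 to 6135), 2858 in delta D (217 to 7127), 6041 in delta A (436 to 7181), 3332 in delta B (0 to 6637), 6801 in delta C (1346 to 7452), 530 in delta E (145 to 1630), 5858 in delta F (29 to 6867) and 2790 between the wild types (43 to 6305). The WT X Plus group of 2 libraries and the mixed groups limit what these tests can separate, since the libraries of a group varied by a biological coefficient of variation of 49.2% on the X Plus and 39.4% on the 6000.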
